A study of Mus musculus with 8 samples.

Results

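The genes of haematopoietic growth factor signalling described here were measured in cultures of mouse bone marrow-derived dendritic cells (BMDCs), and are Csf1, Csf1r, Csf2ra, Csf2rb, Csf2rb2, Csf3r, Flt3 and Il3ra. They were taken as a named list, matched to their Ensembl gene IDs, and make up 8 of the 47937 genes in the count tables. The list goes under the name of receptor genes, but Csf1 encodes a ligand, the colony-stimulating factor that binds Csf1r, and the other 7 encode receptor chains. RNA was sequenced from 4 groups with 2 libraries each: WT and 3xGrk-/- BMDCs, both unstimulated and stimulated with lipopolysaccharide (LPS, a bacterial cell wall component sensed by TLR4) at 20 ng/ml for 24 h. WT cells came from Cre-negative mice. 3xGrk-/- cells, called Grk 3xKO in the sample labels, came from mice with floxed Grk2 and Grk6 alleles (fl/fl), a Grk3-/- background and the Vav-iCre transgene, whose Cre is active from early haematopoietic precursors on. The donors were adult mice older than 8 weeks. All 4 groups grew from bone marrow in medium with 20 ng/ml GM-CSF, for 8 days before stimulation, so the ligand of the Csf2ra receptor was present throughout. The study describes the RNA as taken in technical triplicates and no source used here says whether the 2 libraries of a group come from separate cultures or mice, so each p-value below measures only the spread between these libraries.

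Csf1r and Flt3 are receptor tyrosine kinases: Csf1r is the receptor that macrophages need for growth and survival, and Flt3 serves the progenitors of dendritic cells. The others belong to the cytokine receptor family and signal through Janus kinases and STAT proteins. Csf2ra and Il3ra are the alpha chains that bind GM-CSF and IL-3. Both pair with the common beta chain Csf2rb, and Il3ra also with the mouse IL-3-specific beta chain Csf2rb2. Csf3r is the receptor for G-CSF and is best known from neutrophils.

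The libraries held between 4713305 and 6933358 reads on genes, with a median of 6228400. All 3 targeted kinase genes were lower in 3xGrk-/- libraries, with log2 fold changes without and with LPS of -1.11 and -1.89 for Grk2, -0.36 and -0.42 for Grk3 and -1.19 and -1.54 for Grk6, all with an edgeR adjusted p under 0.05. Most Grk3 reads remained, with means of 339 CPM in WT and 265 CPM in 3xGrk-/- libraries without LPS, and 452 and 339 CPM with LPS. Counts per gene do not show which part of a gene the reads come from. LPS-stimulated 3xGrk-/- replicate 2 stood apart in Gm42418, a gene that overlaps ribosomal RNA, with 2.16% of its reads against 0.273 to 0.638% in the other libraries. Marker genes of cell types moved with genotype. Summed CPM (counts per 1000000 reads of a library whose size was scaled by TMM) of 12 macrophage genes (among them Adgre1, Cd68, Mertk, Fcgr1, Cd14, C1qa, C1qb, C1qc, Apoe and Lyz2) were 2199 to 2247 in unstimulated WT, 8411 to 8425 in unstimulated 3xGrk-/-, 752 to 781 in LPS-stimulated WT and 7359 to 7478 in LPS-stimulated 3xGrk-/- libraries. In the same order of groups, 10 dendritic cell genes (Itgax, Zbtb46, Cd74, H2-Aa, H2-Ab1, Ccr7, Dpp4, Kmo, Ciita and Cd83) summed to 23052 to 23250, 12447 to 12712, 16270 to 17684 and 13425 to 13667 CPM, and all 10 had reads in every library. The highest in unstimulated WT were Cd74, H2-Aa and H2-Ab1, with means of 11952, 3977 and 3526 CPM. In unstimulated 3xGrk-/- libraries these 3 had means of 6392, 1665 and 1105 CPM, so the sum rests largely on them. Lymphocyte genes summed to at most 7.71 CPM, and 4 to 7 of the 9 were at 0 in each library. The part of such shifts in the results below was not tested, and in bulk RNA a change in the share of a cell type cannot be told apart from a change of RNA per cell.

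Without LPS, all 8 genes differed between the genotypes, 7 higher and 1, Csf3r, lower in 3xGrk-/- cells (edgeR's quasi-likelihood F-test, with an adjusted p under 0.05 after Benjamini-Hochberg correction across every gene tested). Of all 12000 genes tested in that comparison, 44.7% passed the same threshold, 22.1% as higher and 22.7% as lower. With LPS, all 8 were higher in 3xGrk-/- cells, where 48.6% of 11830 genes passed and 24.7% passed as higher. The median log2 fold change of the 8 genes, 3xGrk-/- over WT, was 0.58 without and 0.82 with LPS, beside -0.00 and -0.01 for all genes tested. The libraries of the genotypes did not overlap for any of the 8 genes in either state, which was also true of 69.2% of all genes tested without and 72.7% with LPS.

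**Figure D1:**
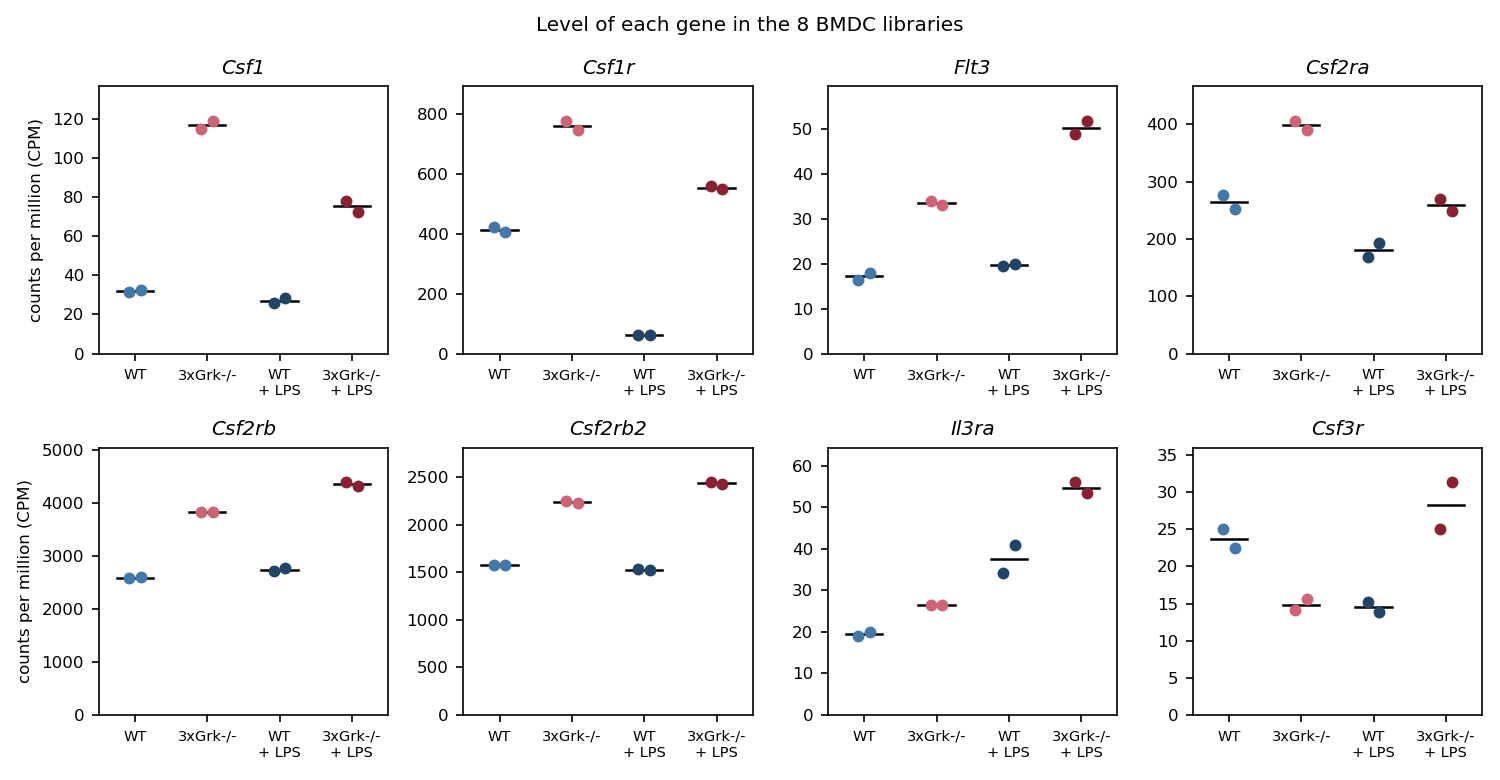
Level of each of the 8 genes, in CPM scaled by TMM over all libraries (linear axes from 0, a different one for each gene), in WT and 3xGrk-/- BMDCs without and with LPS; each point is 1 library and each line the mean of 2. In 3xGrk-/- libraries 7 genes lay above WT in both states, and Csf3r lay below WT without LPS and above it with LPS.

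Csf1, the ligand, had the largest difference of the 8 without LPS. Unstimulated WT libraries held 31.5 and 32.7 CPM of Csf1 and 3xGrk-/- libraries 115 and 119 CPM. This was a 3.63-fold difference, a log2 fold change of 1.86 (SE 0.08, edgeR adjusted p = 3.27e-112). With LPS the levels were 25.8 and 28.3 CPM in WT against 78.0 and 72.5 CPM in 3xGrk-/- cells, 2.77-fold higher (log2 1.47, SE 0.10, edgeR adjusted p = 1.71e-10). LPS lowered Csf1 in 3xGrk-/- cells by a log2 fold change of -0.64 (SE 0.07, edgeR adjusted p = 2.79e-08). In WT cells its change of -0.25 had an edgeR adjusted p of 0.0513, which fell under 0.05 with library size scaling, with a minimum of 10 counts, and without LPS-stimulated WT replicate 2. The genotype difference in Csf1 was smaller with than without LPS, by a log2 value of -0.39 (SE 0.13, edgeR adjusted p = 0.0227). That last call did not hold without unstimulated WT replicate 1 or 2, unstimulated 3xGrk-/- replicate 2, LPS-stimulated WT replicate 2 or LPS-stimulated 3xGrk-/- replicate 2 (adjusted p = 0.0602 to 0.114), nor in DESeq2 (0.174). Every 3xGrk-/- library held more of the ligand gene than any WT library, in either state. Csf1 lies on chromosome 3 at 107741048-107760469 of GRCm38, minus strand.

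Csf1r, the receptor for that ligand, had the largest difference of the 8 with LPS. Unstimulated libraries held 421 and 407 CPM in WT and 776 and 745 CPM in 3xGrk-/- cells. LPS-stimulated libraries held 63.1 and 61.3 CPM in WT and 558 and 549 CPM in 3xGrk-/- cells. The WT libraries with LPS stood far below the other 6, and the 4 groups did not overlap. LPS lowered Csf1r 6.65-fold in WT cells (log2 fold change -2.73, SE 0.06, edgeR adjusted p = 1.76e-24) and 1.38-fold in 3xGrk-/- cells (-0.46, SE 0.05, edgeR adjusted p = 4.49e-09). The LPS response therefore differed between the genotypes by a log2 value of 2.27 (SE 0.08, edgeR adjusted p = 6.37e-19), and between 2.24 and 2.31 when any 1 library was left out. The genotype differences that surround this were 1.84-fold without LPS (SE of the log2 value 0.04) and 8.89-fold with LPS (SE 0.07).

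Of the 12 macrophage genes summed above, 7 were higher and 4 lower in unstimulated 3xGrk-/- cells and all 12 were higher with LPS. Lyz2, a lysozyme gene, made up 83.9 to 84.3% of their sum in unstimulated 3xGrk-/- libraries and 37.3 to 61.9% in the others. The other 11 summed to 892 to 893 CPM in unstimulated WT, 1318 to 1357 CPM in unstimulated 3xGrk-/-, 471 to 490 CPM in LPS-stimulated WT and 2802 to 2864 CPM in LPS-stimulated 3xGrk-/- libraries. Without Lyz2 the sum was thus highest in LPS-stimulated 3xGrk-/- cells, whereas Csf1r was highest in unstimulated 3xGrk-/- cells. The 4 that were lower without LPS were C1qb (log2 fold change -1.94), C1qc (-1.88) and C1qa (-1.61), which encode the chains of complement C1q, and the Fc receptor gene Fcgr1 (-0.64). Apoe, an apolipoprotein gene, had the largest difference, 4.75 without and 4.17 with LPS. In WT cells LPS lowered 9 of the 12 macrophage genes and raised 3, and in 3xGrk-/- cells it lowered 3 and raised 5. The part of macrophages in the level of Csf1r was not tested. On chromosome 18, 15.1% of the exon bases of Csf1r (873 bases) overlap Hmgxb3 on the other strand, and the strand setting of the counting is not given in the sources used here. Hmgxb3 held 174 to 263 reads per library, against 348 to 5187 for Csf1r.

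Reads of Csf1r per read of Csf1 in the same library, a ratio that needs no scaling between libraries, were 13.3 and 12.5 in unstimulated WT and 6.75 and 6.26 in unstimulated 3xGrk-/- cells. With LPS the ratio was 2.45 and 2.16 in WT and 7.15 and 7.57 in 3xGrk-/- cells. The genotype with the higher ratio of receptor to ligand reads was thus WT without LPS and 3xGrk-/- with LPS.

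Flt3 had the lowest level per kilobase of exon in 2 of the groups, both of them WT. Unstimulated libraries held 16.4 and 17.9 CPM in WT and 34.0 and 33.0 CPM in 3xGrk-/- cells. LPS-stimulated libraries held 19.4 and 19.96 CPM in WT and 48.7 and 51.7 CPM in 3xGrk-/- cells. Every 3xGrk-/- library was above every WT library. The differences were 1.94-fold without LPS (log2 0.95, SE 0.13, edgeR adjusted p = 4.98e-13) and 2.55-fold with LPS (log2 1.35, SE 0.11, edgeR adjusted p = 2.99e-09). LPS raised Flt3 in 3xGrk-/- cells (log2 0.59, SE 0.10, edgeR adjusted p = 1.18e-05), and its value in WT was 0.19 (SE 0.13, edgeR adjusted p = 0.229). The difference between these responses, 0.40 (SE 0.17), had an edgeR adjusted p of 0.0709, and of 0.0430 when only genes with 10 counts in every library were tested. Flt3 lies on chromosome 5 at 147330741-147400489 (minus strand). Of a dendritic cell and a macrophage signature, the study displayed the genes that differed in these libraries. It reported many dendritic cell signature genes as lower in 3xGrk-/- BMDCs and a macrophage signature as emerging in both states. Its text and captions do not name Flt3 or Csf3r among them. Of the 10 dendritic cell genes listed above, which do not include Flt3, 8 were lower and 2 higher in unstimulated 3xGrk-/- cells and 9 were lower and 1 higher with LPS. The largest differences among them were Kmo (-1.75) and H2-Ab1 (-1.67) without LPS, and Itgax (2.34) and Kmo (-1.66) with LPS. Kmo encodes an enzyme of tryptophan breakdown, H2-Ab1 a chain of MHC class II and Itgax the integrin CD11c.

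Csf2ra and Csf2rb, the chains of the GM-CSF receptor, were both higher in 3xGrk-/- cells, by 1.44- to 1.59-fold. Csf2ra, the alpha chain on chromosome 19 at 61223957-61228429 (minus strand), held 277 and 253 CPM in WT and 406 and 391 CPM in 3xGrk-/- cells without LPS. With LPS it held 168 and 193 CPM in WT and 270 and 249 CPM in 3xGrk-/- cells. The genotypes did not overlap in either state, while unstimulated WT and LPS-stimulated 3xGrk-/- libraries overlapped. Csf2ra was 1.51-fold higher in 3xGrk-/- cells without LPS (log2 0.59, SE 0.04, edgeR adjusted p = 2.67e-41) and 1.44-fold higher with LPS (log2 0.52, SE 0.07, edgeR adjusted p = 3.32e-06). LPS lowered it in both genotypes, by log2 fold changes of -0.55 in WT (SE 0.07, edgeR adjusted p = 3.26e-08) and -0.62 in 3xGrk-/- cells (SE 0.06, edgeR adjusted p = 1.77e-09). The difference between these responses was -0.07 (SE 0.09, edgeR adjusted p = 0.615).

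The beta chains were the most abundant of the 8 genes. Csf2rb held 2577 and 2600 CPM in WT libraries without LPS, 3826 and 3839 CPM in 3xGrk-/- libraries without LPS, 2714 and 2776 CPM in LPS-stimulated WT and 4389 and 4318 CPM in LPS-stimulated 3xGrk-/- libraries. Csf2rb2 held 1579 and 1574, 2244 and 2227, 1529 and 1519, and 2442 and 2428 CPM in the same order. Both genes lay higher in every 3xGrk-/- library than in any WT library. The difference in Csf2rb was 1.48-fold without LPS (log2 0.57, SE 0.03, edgeR adjusted p = 7.79e-102) and 1.59-fold with LPS (log2 0.66, SE 0.05, edgeR adjusted p = 1.31e-10). For Csf2rb2 it was 1.42-fold without LPS (log2 0.50, SE 0.03, edgeR adjusted p = 3.86e-64) and 1.60-fold with LPS (log2 0.68, SE 0.05, edgeR adjusted p = 2.93e-10). Csf2rb is a chain through which GM-CSF and IL-3 signal, and Csf2rb2 one for IL-3. LPS raised Csf2rb by a log2 fold change of 0.18 (SE 0.04, edgeR adjusted p = 9.25e-05) and Csf2rb2 by 0.12 (SE 0.04, edgeR adjusted p = 0.00863) in 3xGrk-/- cells. In WT the values were 0.08 (SE 0.04, edgeR adjusted p = 0.0459) for Csf2rb and -0.05 (SE 0.04, edgeR adjusted p = 0.286) for Csf2rb2.

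These small responses depended on the scaling. With library size alone the median LPS response of all genes moved by -0.21 in WT and -0.22 in 3xGrk-/- cells, and the response of Csf2rb turned to -0.13 in WT (edgeR adjusted p = 0.00402) and -0.03 in 3xGrk-/- cells (edgeR adjusted p = 0.461), and that of Csf2rb2 in 3xGrk-/- cells to -0.09 (edgeR adjusted p = 0.0481). The response of Csf2rb2 in WT became -0.26 with that scaling and was then called (edgeR adjusted p = 2.09e-06). The call for Csf2rb in WT was also lost without unstimulated WT replicate 1 or 2, unstimulated 3xGrk-/- replicate 1 or 2 or LPS-stimulated 3xGrk-/- replicate 1 (adjusted p = 0.0602 to 0.167), and that for Csf2rb2 in 3xGrk-/- cells without unstimulated 3xGrk-/- replicate 2 (0.0777) or LPS-stimulated 3xGrk-/- replicate 1 (0.0582). The genotype difference in Csf2rb2 was larger with than without LPS by 0.17 (SE 0.06, edgeR adjusted p = 0.0166), a call lost without unstimulated 3xGrk-/- replicate 1 or 2 or LPS-stimulated 3xGrk-/- replicate 1 (adjusted p = 0.0566 to 0.0837). For Csf2rb the same difference was 0.10 (SE 0.05, edgeR adjusted p = 0.149), which passed without LPS-stimulated WT replicate 2 (0.0248) and with a minimum of 10 counts (0.0305).

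The 2 beta chain genes are neighbouring copies on chromosome 15, Csf2rb at 78325752-78353847 on the plus strand and Csf2rb2 at 78282507-78305721 on the minus strand. Their coding sequences in GENCODE M21, of 2688 and 2634 bases, were 95.2% identical over 2628 aligned bases, with 125 differing bases and a longest identical stretch of 242 bases. The first 120 coding bases of each are shown because they make visible how few bases tell the reads of these genes apart. Capitals mark the 4 bases that differ. They come from coding exons at chr15:78335207-78335294 and chr15:78336348-78336379 (plus strand) for Csf2rb and at chr15:78298142-78298229 and chr15:78297071-78297102 (minus strand) for Csf2rb2.
Csf2rb: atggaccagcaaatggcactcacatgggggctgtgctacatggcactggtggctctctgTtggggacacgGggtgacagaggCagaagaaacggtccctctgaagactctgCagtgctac
Csf2rb2: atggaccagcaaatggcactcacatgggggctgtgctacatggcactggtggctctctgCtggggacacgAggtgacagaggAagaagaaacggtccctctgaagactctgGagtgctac

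Of the 50-base windows of the longest transcripts, 18.4% of those of Csf2rb occur letter for letter in Csf2rb2 and 19.0% the other way round, and of the 100-base windows 6.96% and 7.20%. How shared reads were assigned is not given in the sources used here, so the level of each beta chain is uncertain. Reads of Csf2rb2 per 100 reads of Csf2rb in the same library were 61.3 and 60.6 in unstimulated WT, 58.7 and 58.0 in unstimulated 3xGrk-/-, 56.3 and 54.7 in LPS-stimulated WT and 55.6 and 56.2 in LPS-stimulated 3xGrk-/- cells. The ratio was highest in unstimulated WT and the LPS-stimulated genotypes overlapped. Reads of Csf2ra per 100 of Csf2rb were 10.8 and 9.72, 10.6 and 10.2, 6.18 and 6.96, and 6.16 and 5.76 in the same order. On this ratio of alpha to beta chain reads the genotypes overlapped without LPS. With LPS they were barely apart, at 6.18 in WT against 6.16 in 3xGrk-/- cells for the nearest libraries. All 4 LPS-stimulated libraries lay below all 4 unstimulated ones.

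Il3ra, the IL-3 receptor alpha chain on chromosome 14 at 14346275-14356011 (plus strand), was raised by LPS in both genotypes. Without LPS its level was 19.1 and 19.9 CPM in WT and 26.5 and 26.4 CPM in 3xGrk-/- cells. With LPS it held 34.3 and 40.8 CPM in WT and 56.0 and 53.5 CPM in 3xGrk-/- cells. The 4 groups did not overlap. LPS raised it 1.93-fold in WT (log2 0.95, SE 0.12, edgeR adjusted p = 9.07e-08) and 2.07-fold in 3xGrk-/- cells (log2 1.05, SE 0.11, edgeR adjusted p = 1.82e-09), with a difference between the responses of 0.10 (SE 0.16, edgeR adjusted p = 0.694). Its genotype difference was the smallest of the 8 without LPS, 1.35-fold (log2 0.43, SE 0.13, edgeR adjusted p = 0.00259), and DESeq2 did not call it (adjusted p = 0.174). With LPS it was 1.45-fold (log2 0.54, SE 0.11, edgeR adjusted p = 0.000273). Basophils and mast cells are known to carry this chain. Of 9 mast cell and basophil genes, 6 were tested in each state, 2 higher and 3 lower in unstimulated 3xGrk-/- cells and 1 higher and 3 lower with LPS. Their summed CPM of 50.2 to 53.0, 66.3 to 72.8, 97.6 to 102 and 290 to 296 in the 4 groups was led by Cpa3, a mast cell protease gene, without LPS (21.1 CPM on average in WT and 23.9 in 3xGrk-/- cells). With LPS it was led by Hdc, the histidine decarboxylase gene (55.7 and 257 CPM), whose log2 fold change between the genotypes was 0.92 without and 2.20 with LPS. Ms4a2 (-3.93 by the fit with LPS), a chain of the high-affinity IgE receptor, held 12 and 23 reads in WT and 1 and 1 in 3xGrk-/- libraries with LPS, at least 5.56-fold lower against a floor of 3 counts per library. The part of such cells in the level of Il3ra was not tested.

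Csf3r, on chromosome 4 at 126024550-126044440 (plus strand), was the only one of the 8 whose genotype difference changed sign. Unstimulated libraries held 25.03 and 22.4 CPM in WT and 14.1 and 15.6 CPM in 3xGrk-/- cells. LPS-stimulated libraries held 15.2 and 13.9 CPM in WT and 25.1 and 31.3 CPM in 3xGrk-/- cells. The level was thus high in unstimulated WT and LPS-stimulated 3xGrk-/- cells and low in the others, and unstimulated 3xGrk-/- and LPS-stimulated WT libraries overlapped. It was 1.59-fold lower in 3xGrk-/- cells without LPS (log2 -0.67, SE 0.14, edgeR adjusted p = 1.06e-05) and 1.95-fold higher with LPS (log2 0.96, SE 0.15, edgeR adjusted p = 1.94e-05). LPS lowered it in WT (log2 -0.70, SE 0.15, edgeR adjusted p = 0.00017) and raised it in 3xGrk-/- cells (log2 0.94, SE 0.14, edgeR adjusted p = 1.96e-06). The responses differed by a log2 value of 1.63 (SE 0.20, edgeR adjusted p = 2.33e-07), and between 1.46 and 1.77 when any 1 library was left out. The counts behind it were low, 84 to 193 reads per library.

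Of 10 neutrophil genes, 6 were lower and none higher in unstimulated 3xGrk-/- cells, led by Mpo (log2 fold change -1.68), the myeloperoxidase gene, and Camp (-1.14), which encodes cathelicidin. With LPS 7 of 9 tested were lower and none higher, led by Mpo (-2.92) and Camp (-1.37). Mpo was down to 2 and 1 reads there, against 11 and 14 in WT, at least 4.03-fold lower against the floor of 3 counts per library. The 10 genes summed to 721 to 766 CPM in unstimulated WT, 531 to 546 CPM in unstimulated 3xGrk-/-, 340 to 396 CPM in LPS-stimulated WT and 188 to 205 CPM in LPS-stimulated 3xGrk-/- libraries. Without LPS both Csf3r and the neutrophil sum were lower in 3xGrk-/- than in WT libraries, and with LPS Csf3r was higher and the sum lower. Between the unstimulated and LPS-stimulated libraries both were lower with LPS in WT, and in 3xGrk-/- cells Csf3r was higher and the sum lower. The part of neutrophils in the level of Csf3r was not tested. Retnlg had no read in LPS-stimulated WT replicate 1, and each of the other markers had reads in every library.

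**Figure D2:**
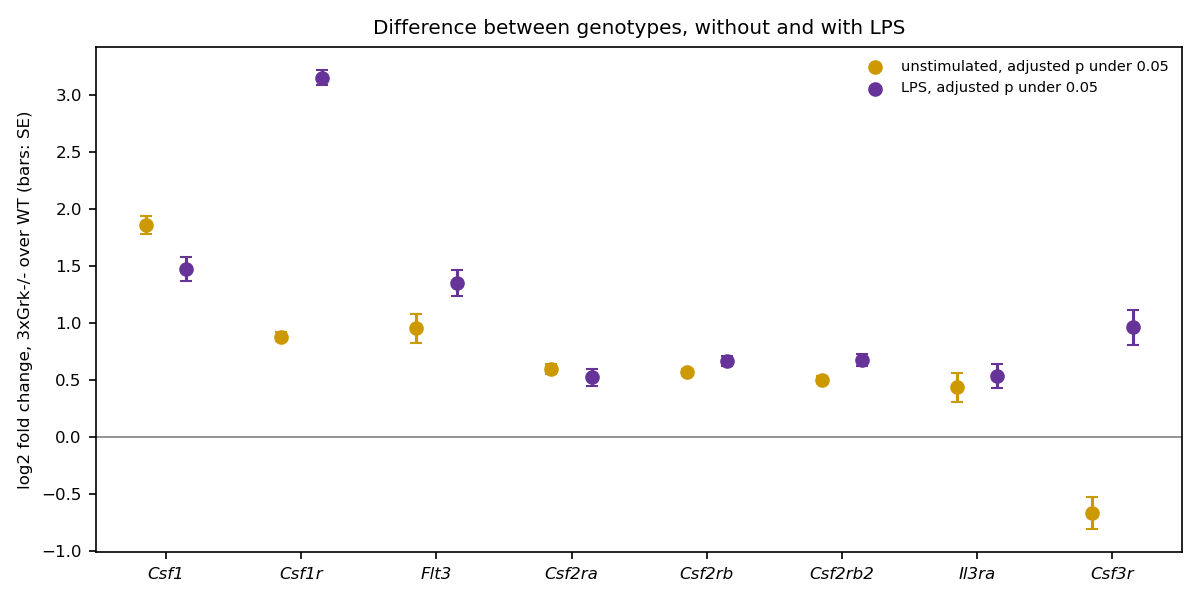
Log2 fold change of 3xGrk-/- over WT (vertical axis) for each of the 8 genes without and with LPS; points are edgeR estimates from 2 against 2 libraries and bars are standard errors. All 16 points passed an adjusted p of 0.05, and Csf3r without LPS, at -0.67, is the only one below 0.

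The sources used here do not give whether the libraries of the 2 states shared a sequencing run, so a batch could not be told apart from the response to LPS. In WT cells 5 of the 8 genes responded, Csf2rb and Il3ra higher and Csf1r, Csf2ra and Csf3r lower. In that comparison 60.3% of 12541 genes passed, 29.5% as higher and 30.8% as lower. In 3xGrk-/- cells all 8 were called, 5 higher and 3 lower (Csf1, Csf1r and Csf2ra), where 55.4% of genes passed, 28% as higher and 27.4% as lower. The median log2 response of the 8 was -0.15 in WT and 0.15 in 3xGrk-/- cells, beside -0.01 for all genes tested in either. The genotype difference changed with LPS for 4 of the 8, Csf1r, Csf3r and Csf2rb2 upward and Csf1 downward, where 32.5% of genes passed, 16.5% upward and 16% downward. The unstimulated and LPS-stimulated libraries did not overlap for any of the 8 genes in either genotype, as was the case for 78.2% of all genes in WT and 77.6% in 3xGrk-/- cells.

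Other estimates of the spread called fewer genes. DESeq2 called 7 of the 8 members for genotype without LPS (20.9% of all genes it tested), 8 for genotype with LPS (27.9%), 5 and 8 for the LPS response in WT (39.6%) and 3xGrk-/- cells (34.3%) and 3 for the change of the genotype difference (19.4%). With a coefficient of variation of 0.4 for every gene, as is used for samples of unrelated individuals, no member was called for genotype without LPS (3.73% of all genes), Csf1r alone for genotype with LPS (6.61%) and for the response in WT (8.85%), and none for the response in 3xGrk-/- cells (6.78%) or for the change of the difference (0.574%). At an unadjusted p under 0.05 that fit had 1 member (Csf1), 3 (Csf1, Csf1r and Flt3), 1 (Csf1r), 0 and 1 (Csf1r) in the same order.

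**Figure D3:**
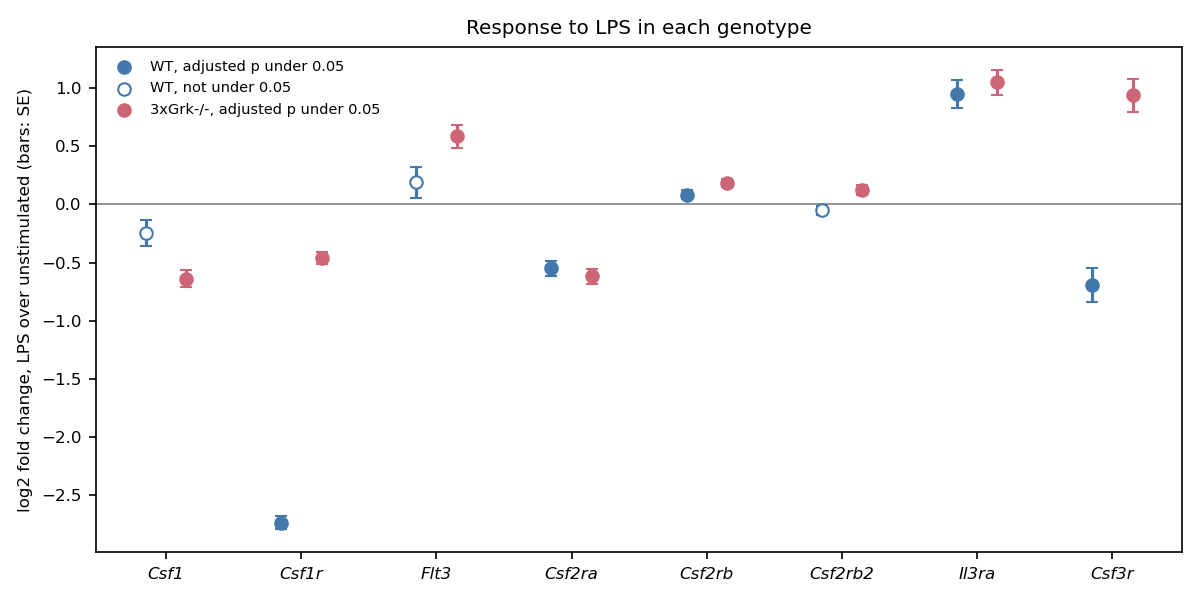
Log2 fold change of LPS-stimulated over unstimulated cells (vertical axis) for each of the 8 genes in WT and 3xGrk-/- BMDCs; bars are standard errors and open points did not pass an adjusted p of 0.05 in edgeR. Csf1r in WT, at -2.73, lies far below the rest, and Csf3r lies on opposite sides of 0 in the genotypes.

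Levels can be compared between genes only per length, here as CPM per kilobase of exon. The order in unstimulated WT cells was Csf2rb (356), Csf2rb2 (333), Csf2ra (92.3), Csf1r (71.6), Csf3r and Il3ra (6.57 each), Csf1 (6.08) and Flt3 (2.78). Csf3r and Il3ra overlapped between their libraries there and every other pair of neighbours did not. In unstimulated 3xGrk-/- cells Csf1 (22.1) followed Csf1r (132) and stood above Il3ra (8.91), Flt3 (5.42) and Csf3r (4.11). In LPS-stimulated WT cells Csf1r (10.8) had dropped below Il3ra (12.7), and in LPS-stimulated 3xGrk-/- cells it (95.8) stood above Csf2ra (90.5). Flt3 (8.13) and Csf3r (7.81), the last in that group, overlapped. Among 12512 genes ranked per kilobase, Csf2rb held rank 55 to 95 and Csf2rb2 rank 65 to 119 over the 4 groups, whereas Csf1r moved from rank 570 in WT to rank 4145 in WT with LPS.

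The ligands of these receptors were mostly near 0, apart from Csf1. Csf2, which encodes GM-CSF, had at most 2 reads in any library, in cultures to which the protein was added, and Il3 and Il5 had none in any of the 8 libraries. Zero reads allow up to 3 counts per library, a floor for counting error only. Csf3, which encodes G-CSF, the ligand of Csf3r, had 0 and 0 reads in unstimulated WT, 1 and 0 in unstimulated 3xGrk-/-, 3 and 8 in LPS-stimulated WT and 93 and 105 in LPS-stimulated 3xGrk-/- libraries. It was higher in LPS-stimulated 3xGrk-/- than WT cells (log2 fold change 4.18, SE 0.31, edgeR adjusted p = 2.67e-10). Against the floor of 3 counts per library LPS raised it at least 35.0-fold in 3xGrk-/- cells and at least 1.79-fold in WT cells. The fit gave 1.89 for the change of its genotype difference, which was not called (edgeR adjusted p = 0.845) and is no measure of size with a group at 0. Kitl, the ligand of Kit, had 10 and 11 reads in LPS-stimulated 3xGrk-/- cells and none in LPS-stimulated WT cells, at least 3.57-fold higher. Il34, the other ligand of Csf1r, had 5 and 5 reads in LPS-stimulated 3xGrk-/- libraries and at most 1 elsewhere. Flt3l was not analysed here.

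Of 16 other haematopoietic cytokine receptor genes, 14 were tested. For this list and those below, the shares of all genes tested that were called for genotype were 44.7% without and 48.6% with LPS. Without LPS 6 were higher and 2 lower in 3xGrk-/- cells, and 10 were higher and 2 lower after LPS. Their median log2 fold changes were 0.10 and 0.61. The higher ones without LPS were Il10rb (0.69), Il7r (0.57), Il4ra (0.44), Crlf2 (0.38), Ifngr2 (0.37) and Il2rg (0.36), chains of the receptors for IL-10, IL-7, IL-4, TSLP, interferon-gamma and the common gamma family. With LPS they were Il7r (1.60), Lifr (1.44), Crlf2 (1.22), Il13ra1 (1.02), Il6st (0.95), Il2rg (0.84), Il6ra (0.71), Ifngr1 (0.50), Il10rb (0.47) and Il4ra (0.29). Lower were Il5ra (-1.69) and Ifngr1 (-0.33) without LPS and Il5ra and Il10ra (-0.67) with LPS. Kit, the receptor tyrosine kinase of mast cells and progenitors, had values of 0.10 and -0.06 that did not pass. LPS raised Kit in WT (0.75) and in 3xGrk-/- cells (0.60).

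Il5ra, the IL-5 receptor alpha chain that also pairs with Csf2rb, moved against the other partners of that beta chain. It had 10 and 13 reads in unstimulated WT, 4 and 3 in unstimulated 3xGrk-/-, 9 and 14 in LPS-stimulated WT and 1 and 0 in LPS-stimulated 3xGrk-/- libraries, at least 3.68-fold lower in the last comparison. It is a gene of eosinophils and one of 8 listed here. Of the other 7, 6 were lower without and 7 with LPS, led by Epx (log2 fold change -5.89 and -6.37) and Ear1 (-5.20 and -5.08). The summed level of all 8, Il5ra included, was 1257 to 1330 CPM in unstimulated WT, 67.0 to 74.5 CPM in unstimulated 3xGrk-/-, 1150 to 1251 CPM in LPS-stimulated WT and 82.9 to 88.9 CPM in LPS-stimulated 3xGrk-/- libraries. The part of eosinophils in the levels of Csf2ra and Csf2rb, which these cells also carry, was not tested. Both genes were higher in the genotype with the lower eosinophil sum.

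Downstream of the receptors, 20 genes of signal transducers were tested. In unstimulated 3xGrk-/- cells 10 rose and 5 fell relative to WT (median log2 fold change 0.11), whereas LPS-stimulated 3xGrk-/- cells had 4 higher and 11 lower (median -0.25). The largest difference without LPS was that of Pik3cd (-0.60), a catalytic subunit of PI3 kinase. With LPS the largest were those of Pik3cd (-0.91) and Syk (0.85), a tyrosine kinase. Stat5b and Stat5a, which carry the GM-CSF signal to the nucleus, were lower in LPS-stimulated 3xGrk-/- than LPS-stimulated WT cells (-0.68 and -0.39). In the same comparison Csf2ra and Csf2rb were higher. Without LPS Stat5a was higher (0.23) and Stat5b (0.03) did not pass. Jak2, the kinase bound to the beta chain, was lower in both states (-0.14 and -0.38). Stat5a, Stat5b and Jak2 were chosen from the list after their values were seen.

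Of 10 genes known as STAT5 targets, 8 were higher and 1 lower in unstimulated 3xGrk-/- cells (median log2 fold change 0.50). After LPS stimulation 3 were higher and 5 lower (median -0.11). The largest without LPS were Pim2 (-1.27), a survival kinase, and Socs1 (0.93), a feedback inhibitor of cytokine signalling. With LPS they were Pim2 (-1.27) and Osm (1.23), the oncostatin M gene. The genotype difference changed with LPS for 6 of the 10, where 32.5% of all genes tested did. Of these 6, 5 changed downward, led by Bcl2l1 (-1.79), which encodes the survival factor BCL-XL, and Ccnd2 (-1.39), the cyclin D2 gene. LPS raised all 10 in WT cells, led by Socs3 and Ccnd2 (2.64 each), and 8 in 3xGrk-/- cells, led by Socs3 (2.80) and Osm (1.78). Of all genes tested, 29.5% were called as higher with LPS in WT and 28% in 3xGrk-/- cells.

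**Figure D4:**
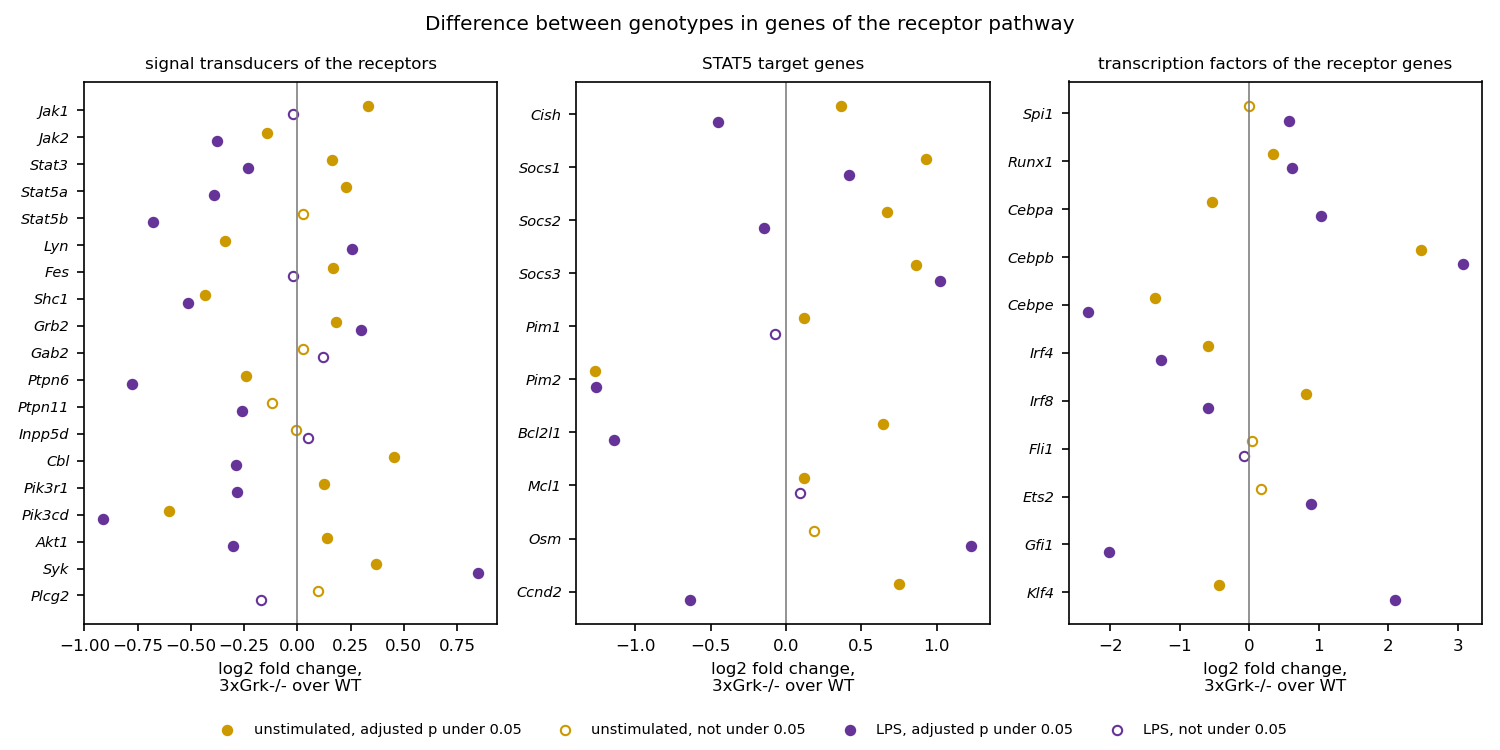
Log2 fold change of 3xGrk-/- over WT (horizontal axis) for signal transducers of the receptors, STAT5 target genes and transcription factors known to act on myeloid receptor genes, without and with LPS; filled points passed an adjusted p of 0.05 in edgeR, and not every gene of the lists is drawn. Pik3cd lies at -0.60 and -0.91 and Cebpb at 2.47 and 3.08.

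Transcription factors known to act on these receptor genes moved in both directions. Of 11 tested without LPS, 3 were higher and 4 lower in 3xGrk-/- cells, and of 12 tested with LPS, 7 were higher and 4 lower. Cebpb, a factor of myeloid differentiation and emergency granulopoiesis, had the largest differences in both states (log2 fold change 2.47 and 3.08), followed by Cebpe (-1.35 and -2.32), a factor of late granulocyte differentiation. Spi1, which encodes PU.1, a factor that all myeloid cells need, was at 0.00 without LPS, where it did not pass, and higher with LPS (0.57). In WT cells LPS lowered Cebpa (-3.05) and Klf4 (-2.61) most, and in 3xGrk-/- cells Cebpa fell by 1.48 and Ets2 rose by 1.13. Spi1 is named because the next paragraph turns on it.

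Promoter sequence from RefSeq (GRCm38.p6) was used for 6 of the 8 genes: Csf1, Csf2ra, Csf2rb2, Csf3r, Flt3 and Il3ra. For Csf2rb none was at hand. Csf1r was left out of the search, so whether its promoter holds a match is not described here. The core letters of the PU.1 motif, GAGGAA, were searched on both strands in the 250 bases before each RefSeq start, since PU.1 is known to act on several of these receptor genes and Spi1 was measured here. Csf2ra held 2 matches and Csf2rb2 and Csf3r 1 each, and Csf1, Flt3 and Il3ra none. Of all 32851 promoters in the table, 23.3% held at least 1. The GENCODE M21 gene starts farther upstream for 3 of the 6, so that 109 bases of the window of Csf3r, 220 of that of Il3ra and 11 of that of Csf2ra lie inside the GENCODE gene. The match of Csf3r and the second match of Csf2ra are in those bases. The windows of Csf2ra at chr19:61228419-61228668 (minus strand) and Csf2rb2 at chr15:78305722-78305971 (minus strand), where the match lies on the other strand, are shown whole, and of Csf3r the 30 bases around the match at chr4:126024561-126024590 (plus strand), because these hold the matches. All run 5' to 3' on the strand of the gene, with the match in capitals. Csf2ra and Csf2rb2 were higher and Csf3r lower in 3xGrk-/- cells without LPS, and a match in these windows is a description of the letters only.
Csf2ra: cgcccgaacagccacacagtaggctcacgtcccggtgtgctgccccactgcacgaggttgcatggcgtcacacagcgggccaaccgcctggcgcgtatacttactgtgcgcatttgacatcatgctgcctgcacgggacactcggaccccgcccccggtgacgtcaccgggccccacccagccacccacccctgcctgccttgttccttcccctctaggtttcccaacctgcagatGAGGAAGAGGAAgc
Csf2rb2: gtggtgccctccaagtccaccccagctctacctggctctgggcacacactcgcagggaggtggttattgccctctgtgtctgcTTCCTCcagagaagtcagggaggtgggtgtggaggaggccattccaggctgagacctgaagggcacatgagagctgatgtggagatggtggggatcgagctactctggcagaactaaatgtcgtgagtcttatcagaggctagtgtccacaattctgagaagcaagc
Csf3r: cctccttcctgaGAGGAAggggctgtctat

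Csf1r protein is cut from the cell surface by the protease ADAM17, which RNA levels do not show. Of 5 genes of that shedding machinery, 3 were higher and none lower in unstimulated 3xGrk-/- cells, Adam17 (log2 fold change 0.38), Rhbdf2 (0.37), which encodes a partner that brings ADAM17 to the surface, and Adam10 (0.18), a related protease. With LPS 4 were tested, 3 higher, led by Rhbdf2 (0.89) and Adam17 (0.54), and 1 lower. LPS lowered Adam17 in both WT (-0.60) and 3xGrk-/- cells (-0.45).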

How the data were processed

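8 poly(A) RNA libraries of BMDCs (4 groups, 2 libraries each) were prepared with a stranded kit. The authors ran snakePipes 2.1.0, aligned reads to mm10 (GRCm38) with STAR 2.7.3a and made counts per gene with featureCounts 2.0.0. The annotation release and the strand setting are not given in the sources used here. The values the authors deposited are raw counts, in 1 table per stimulation; 0 columns were left without a sample.

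IDs were named through GENCODE M21 (47310 of 47937 matched without version; unmatched IDs held 0.0468% of counts). Tests used edgeR 4.0.16 with limma 3.58.1 in R 4.3.3 (filterByExpr, TMM, glmQLFit, glmQLFTest, Benjamini-Hochberg under 0.05): each table on its own for genotype, all 8 libraries in 1 fit for LPS responses and for their difference. SE is the log2 fold change divided by the square root of F. The fits were tested on simulated counts. The common biological coefficient of variation was 0.0306 without LPS, 0.0573 with LPS and 0.0463 over all libraries. Within groups the chi-square per gene was 1.59 to 9.02, above counting noise, so no library was a copy. An exact permutation of 2 against 2 libraries cannot go below p = 0.333. CPM were scaled by TMM over all libraries.

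The members and all lists were chosen with earlier results of these data known. All 8 members are named in every comparison, and from other lists the 2 called genes of greatest absolute log2 fold change, plus any ligand, other receptor or targeted kinase; other names were chosen after their values were seen. A few genes that this rule names are not reported here. Alternatives were DESeq2 1.42.0, RLE or library size scaling, no filter or at least 10 counts per library, a replicate block, a coefficient of variation of 0.4, other sets of libraries in the fit, and leaving out each library.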

Additional observations from a re-analysis of the deposited data

Results flagged for a closer look

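The genotype difference of 4 of the 8 genes changed with LPS in edgeR's test of the difference itself, where 32.5% of all genes tested did. The change, as the log2 difference with LPS minus that without, was 2.27 for Csf1r, 1.63 for Csf3r, -0.39 for Csf1 and 0.17 for Csf2rb2. Csf1r and Csf3r kept the call when any 1 library was left out and in DESeq2, but not with a coefficient of variation of 0.4 for every gene. Csf1 and Csf2rb2 did not keep it without some of the libraries.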

How the results depend on the processing

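Among the alternative values of the member fold changes, 502 kept direction and side of the threshold, 52 were no longer under it, 7 came newly under it and 7 reversed. A biological coefficient of variation of 0.4 left 0 members called without LPS, 1 with LPS, 1 for the LPS response in WT, 0 for that in 3xGrk-/- cells and 0 for the change of the genotype difference, and 448, 782, 1110, 850 and 72 of all genes. DESeq2 called 2828, 3665 and 2457 of all genes for genotype without LPS, genotype with LPS and the change of the difference, against 5369, 5754 and 4070. Leaving out 1 library left 2 to 4 members called for that change, 2 without unstimulated 3xGrk-/- replicate 2, and 3328 to 4199 of all genes. Library size scaling reversed the LPS response of Csf2rb (-0.13) and Flt3 (-0.026) in WT and of Csf2rb (-0.034) and Csf2rb2 (-0.094) in 3xGrk-/- cells. The change of the genotype difference, near 0 for both, reversed for Csf2ra without unstimulated WT replicate 2 (0.014) or LPS-stimulated WT replicate 2 (0.035) and for Il3ra without LPS-stimulated WT replicate 1 (-0.016); leaving out 1 library gave -0.169 to 0.035 for Csf2ra and -0.016 to 0.236 for Il3ra. Same-numbered libraries did not deviate together (correlations -0.0184 to 0.0327), so the numbers share only a label; a replicate block left 8, 8, 4, 8 and 4 members called and 5292, 5654, 7438, 6793 and 3884 of all genes, and among the members it moved only the response of Csf2rb in WT past the threshold (edgeR adjusted p = 0.0813). Csf3r rests on 84 to 193 reads per library.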

Other observations

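For each of the 8 genes, the genes with the most similar pattern over the 4 group means were ranked by the root-mean-square difference of centred log2 CPM, among 9142 genes with a mean log2 CPM of at least 3; the measure is a description over 4 points. For Csf1r the nearest were Lpar6 (0.0641), Parvb (0.164) and Rragd (0.257). Csf1 was nearest to Lmna (0.0729), Atp13a2 (0.140) and Myof (0.140), and Flt3 to Atp6v1e1 (0.0594), Naip2 (0.0716) and Sept9 (0.088). Among the cytokine receptor chains, Csf2ra was nearest to Ablim1 (0.0439), Asah1 (0.0462) and Tspan32 (0.056), Csf2rb to Kctd6 (0.0171) and Tango2 (0.0318), and Csf2rb2 to Hyal2 (0.014), Scly (0.0202) and Mapk6 (0.0275). Il3ra was nearest to Cmtr1 (0.0169), Ears2 (0.0224) and Mdfic (0.0388). Csf3r, with its crossed pattern, was nearest to Hivep2 (0.0694), Gcnt2 (0.0965) and Baiap2 (0.108). No member was among the 3 nearest of another.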
